A study of Mus musculus with 48 samples.

Results

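The genes described here are 10 transcription factors of cortical progenitors, Pax6, Eomes, Neurog1, Neurog2, Sox2, Hes1, Hes5, Emx1, Emx2 and Lhx2. They were chosen by gene symbol from the 24444 genes of the deposited expression table, and all 10 were found in it. Earlier results of these data were known when they were chosen. RNA-seq was performed on the cerebral cortex of 48 mice, in 8 groups of 6: WT and Chd8 V986*/+ (HET) mice taken at E14.5 or at 1, 6 or 12 months of age. Each sample was the dissected cortex of 1 hemisphere from a male C57BL/6J mouse. The V986* allele, a premature stop codon introduced with CRISPR/Cas9 in the gene of the chromatin remodeler CHD8, was heterozygous in every HET mouse, and the line went back to a male founder crossed to C57BL/6J. WT littermates served as controls. The question behind the genotype comparison was how loss of 1 Chd8 copy affects cortical gene expression at each age, and the age comparison follows the same genes from neurogenesis to the mature cortex.

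In the embryonic cortex, radial glia line the ventricle and divide to renew themselves or to give rise to intermediate progenitors and neurons. Sox2 and Pax6 mark radial glia, Notch signaling acts through the transcription factor RBP-J to maintain them by inducing the repressors Hes1 and Hes5, and the proneural factors Neurog1 and Neurog2 drive neuronal commitment. Eomes (Tbr2) marks intermediate progenitors, and Emx1, Emx2 and Lhx2 establish and pattern the dorsal telencephalon. Several of these genes are also used after birth: Sox2, Hes1 and Hes5 in astrocytes and neural stem cells, Emx1 in excitatory neurons, Lhx2 in upper-layer neurons, and Pax6 and Eomes in cells of the olfactory bulb.

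The sequences upstream of 3 of these genes are shown because Hes5, a Notch target, held the motif of the Notch effector RBP-J, and because Eomes and Neurog2 changed most with age. Promoter sequences from RefSeq (GRCm38.p6) were found for 9 of the 10 genes, with 11 start sites in all, and the 250 bases before each start were located by exact match in mm9, the build of the deposited data. Hes1 had no entry. Both strands were searched for GTGGGAA, which RBP-J binds, and for the letters of a core promoter box, TATATA. Capitals mark the matches.
Hes5, chr4:154334782-154335031, plus strand: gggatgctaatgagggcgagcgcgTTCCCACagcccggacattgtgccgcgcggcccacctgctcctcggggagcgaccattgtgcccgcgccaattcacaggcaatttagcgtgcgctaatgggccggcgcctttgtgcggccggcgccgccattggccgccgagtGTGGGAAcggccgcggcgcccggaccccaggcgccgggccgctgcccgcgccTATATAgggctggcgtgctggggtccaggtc
Eomes, chr9:118387057-118387306, plus strand: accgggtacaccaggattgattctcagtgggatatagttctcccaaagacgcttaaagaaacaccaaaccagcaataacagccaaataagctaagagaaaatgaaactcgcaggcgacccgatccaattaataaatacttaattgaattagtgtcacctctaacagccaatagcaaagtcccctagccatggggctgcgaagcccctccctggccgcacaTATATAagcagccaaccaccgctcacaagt
Neurog2, chr3:127335804-127336053, plus strand: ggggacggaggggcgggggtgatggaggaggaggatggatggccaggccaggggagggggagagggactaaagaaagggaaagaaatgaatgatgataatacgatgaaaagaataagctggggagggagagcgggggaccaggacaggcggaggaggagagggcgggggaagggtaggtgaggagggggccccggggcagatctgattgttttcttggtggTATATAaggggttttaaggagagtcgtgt
The Hes5 window held GTGGGAA at 2 places, 226 to 220 and 83 to 77 bases before the start, and no other of the 9 genes held it. Of 32851 promoter windows of the same length, 5.42% held this motif. TATATA was present in the windows of Hes5, Eomes and Neurog2 and in 5.25% of all windows, and ended 26, 25 and 24 bases before the respective starts. The E-box CANNTG, the motif of proneural factors such as Neurog1 and Neurog2, was present for 3 of the 9 genes (Pax6, Hes5 and Emx1) and in 66.2% of all windows. These matches describe the letters in these windows only. In mm9, the Eomes and Neurog2 windows overlapped no annotated exon, and the Hes5 window overlapped an exon of the neighbouring transcript RP24-89N4.5.

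Expression is given as variance-stabilized (VST) values on a log2 scale, in which the most frequent value, 2.1433, is the floor reached by genes with few or no reads. VST values are not corrected for gene length, so levels were compared between mice and not between genes. Differences were tested with limma across all expressed genes, and a gene is called changed where its p, adjusted by the method of Benjamini and Hochberg, was below 0.1. Chd8 itself was lower in HET mice at every age, by 0.63 at E14.5 (SE 0.08, limma adjusted p = 0.026), 0.67 at 1 month, 0.64 at 6 months and 0.54 at 12 months, with no overlap between genotypes. Tbr1, a transcription factor of cortical excitatory neurons, was high in all groups, with group means of at least 12.56 at E14.5 and at least 11.96 after birth. Markers of 3 neighbouring tissues varied between samples. The mean of 35 midbrain, hindbrain and spinal cord markers ranged from 3.97 to 7.55 in WT embryos and from 3.98 to 5.43 in HET embryos. The mean of 6 olfactory bulb markers ranged from 5.56 to 8.69 in HET mice at 12 months and from 5.72 to 6.81 in their WT controls. The mean of 10 choroid plexus markers ranged from 5.19 to 8.13 in HET mice at 1 month and from 5.68 to 8.11 in WT mice at 6 months, with SDs of 0.37 to 1.09 in the 6 postnatal groups. The values that these markers moved with are given beside the results below.

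All 10 progenitor factors fell between E14.5 and 1 month in both genotypes, and for all 10 the 2 ages did not overlap. Large changes were the rule between these ages: 85.7% of 17285 genes tested changed in WT mice and 42.3% fell, and 68.5% of genes did not overlap between the ages. In HET mice 86.1% changed, 42.4% fell and 69.4% did not overlap. The median difference of the 10 factors was -1.73 in WT and -1.97 in HET mice, compared with 0.02 for all genes tested in either genotype. In bulk cortex, fewer cells of a type and less RNA per cell cannot be told apart.

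The deepest falls were those of the genes of intermediate progenitors and neuronal commitment. Eomes ranged from 11.14 to 12.82 in WT embryos (median 11.69) and from 4.60 to 6.84 at 1 month (median 5.02). Its difference was -6.57 (SE 0.35, limma adjusted p = 3.9e-11) in WT and -6.78 (SE 0.43) in HET mice. Neurog2 fell by 6.15 in WT and by 6.66 in HET mice, from 11.27 to 12.20 in WT embryos to 4.91 to 5.95 at 1 month. On the VST scale these differences correspond to 95.3-fold for Eomes and 70.8-fold for Neurog2 in WT mice, and VST compresses differences near the floor. Neurog1, the paralog of Neurog2, started lower relative to the floor, between 7.55 and 8.19 in WT embryos, and fell by 4.53 in WT and by 4.25 in HET mice. After birth Neurog1 group means were 3.21 to 3.54, and 1 of 6 mice was within 0.5 of the floor in each of 3 groups, so adult differences of Neurog1 rest on values near the floor.

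The factors of radial glia and of Notch signaling fell less and remained well above the floor after birth. Pax6 fell by 2.502 in WT mice (SE 0.11) and by 2.75 in HET mice (SE 0.09), from a median of 10.82 in WT embryos to 8.27 at 1 month. Sox2 fell by 1.94 and 2.27 in WT and HET mice. The Notch targets Hes5 and Hes1 fell by 1.41 and 0.91 in WT mice and by 1.42 and 0.99 in HET mice. Hes1 ranged from 8.41 to 9.34 in WT embryos and from 7.75 to 8.10 at 1 month, the narrowest separation in the set together with Emx1. Among the factors of dorsal identity, Emx2 fell by 1.52, Lhx2 by 1.49 and Emx1 by 0.97 in WT mice, and by 1.501, 1.67 and 1.29 in HET mice. Emx1, which mature excitatory neurons retain, ranged from 8.95 to 9.99 in WT embryos and from 8.03 to 8.61 at 1 month.

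**Figure D1:**
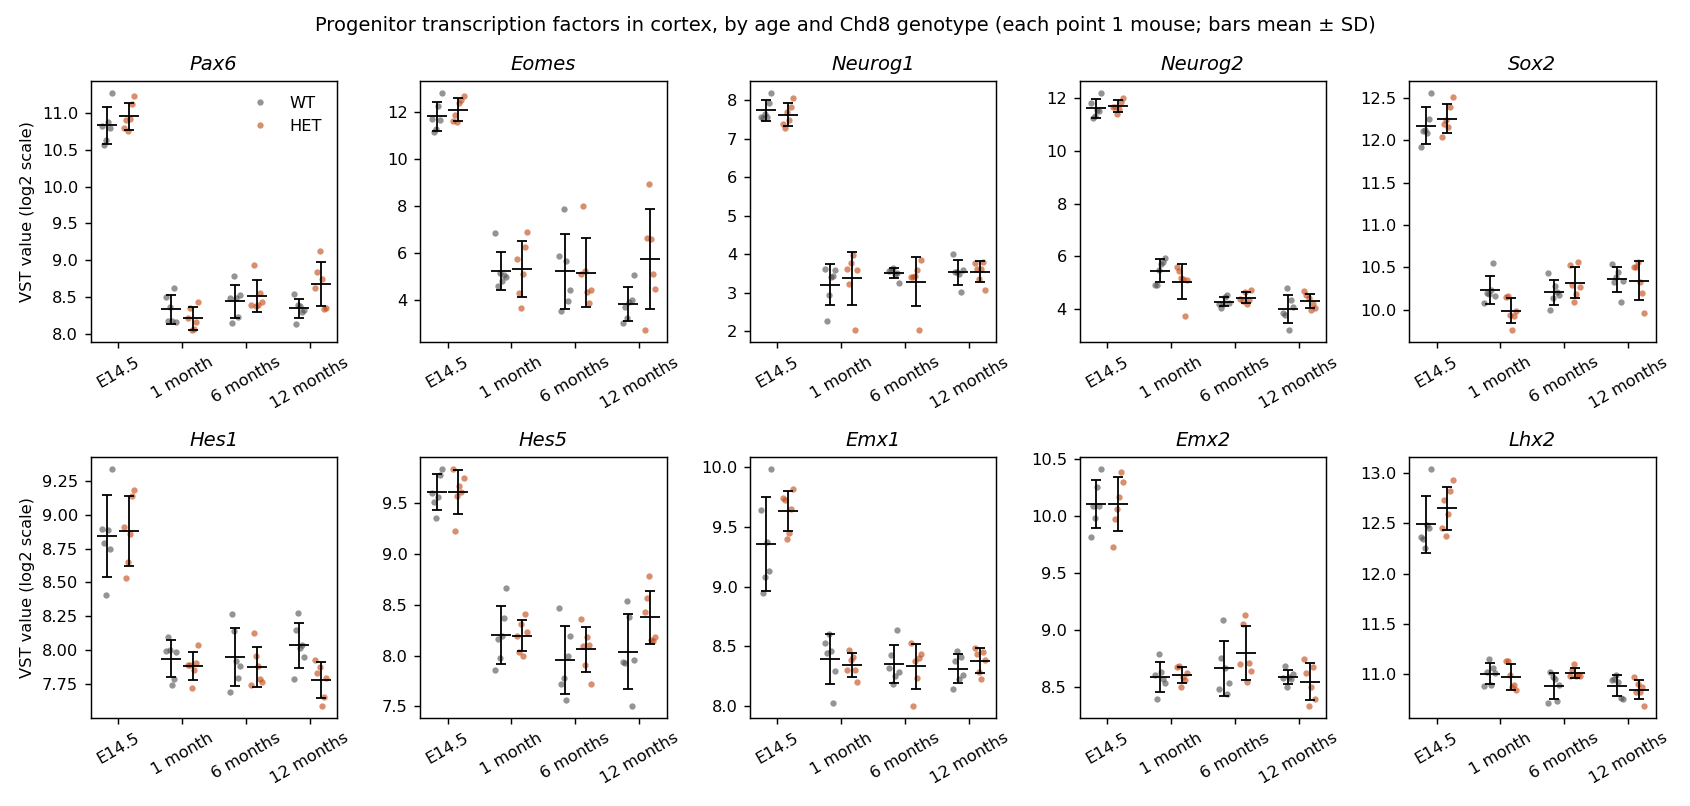
VST values (log2 scale, a separate y axis per gene) of the 10 progenitor factors by age, for WT (grey) and HET (orange) mice, with 1 point per mouse and bars for the mean ± SD of 6 mice. Every gene is highest at E14.5 in both genotypes, and adult Eomes spreads from 2.71 to 8.92 between HET mice at 12 months.

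**Figure D2:**
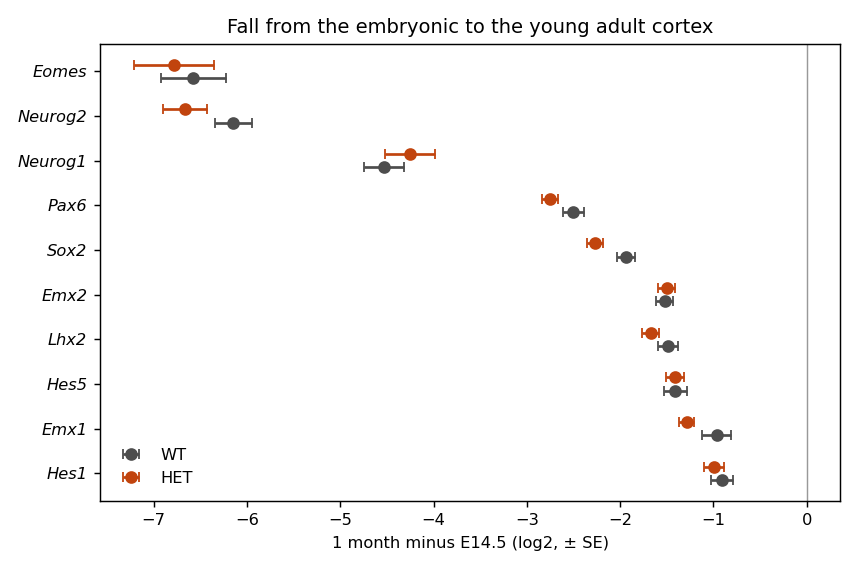
Difference of each factor between 1 month and E14.5 (x axis, log2, ± SE), in WT and HET mice, ordered by the WT value. All values are below 0, from -6.57 for Eomes to -0.91 for Hes1 in WT mice.

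The genes around these factors were examined by their roles. Of 26 further Notch pathway genes, 20 fell and 5 rose in each genotype. The ligands Dll1 and Dll3 fell by 3.21 and 3.38 in WT mice, the receptors Notch1, Notch2 and Notch3 fell by 2.19, 1.96 and 2.02, and Rbpj, which encodes RBP-J, fell by 1.93. The pathway inhibitors Numb and Numbl rose by 1.24 and 0.53. Of 17 other radial glia genes, 13 fell, led by Sox3 (-4.76), Nes (-4.36) and Vim (-4.06), and 3 rose, the astrocyte-expressed Hopx, Slc1a3 and Fgfr3 (2.58, 2.5002 and 0.87). All 12 intermediate progenitor genes fell with Eomes, including Nhlh2 (-6.05) and Insm1 (-4.20), and so did all 19 proliferation genes (median -4.46). In contrast, all 12 astrocyte and all 9 oligodendrocyte genes rose, with medians of 3.78 and 4.25. Genes of RNA quality and stress moved with age too: all 8 rose in WT mice (median 2.78), and their part in the fall of the factors was not tested.

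After 1 month only a few of the factors changed further. The comparisons between 1, 6 and 12 months share mice, so their values are given side by side and not as separate evidence. In WT mice between 1 and 6 months, Neurog2 alone fell, and 24.6% of all genes changed. Its values ranged from 4.91 to 5.95 at 1 month (median 5.61), from 4.05 to 4.53 at 6 months (median 4.22) and from 3.20 to 4.79 at 12 months (median 3.97). The fall was 1.18 by 6 months (SE 0.19, limma adjusted p = 0.00035) and 1.45 by 12 months (SE 0.25, limma adjusted p = 0.00093), and neither older group overlapped the youngest, as for 8.47% and 8.19% of all genes at 6 and 12 months. From 1 to 12 months, 11 of 19 proliferation genes fell and 1 rose (median -0.56). Of 9 genes of the adult neurogenic niche and dentate gyrus, where Neurog2 marks progenitors of granule neurons, 4 fell and 1 rose: Draxin, Sox11 and Dcx, of which the latter pair mark immature neurons, fell by 1.09, 0.69 and 0.52, and Dsp, a gene of mature granule neurons, rose by 1.01. Genes of RNA quality and stress were higher in WT mice at 6 than at 1 month (8 of 8, median 0.43, 3 changed) and at 12 than at 1 month (7 of 8, median 0.21, 4 changed), and their part in the fall of Neurog2 was not tested. Eomes also fell between 1 and 12 months in WT mice, by 1.42 (SE 0.36, limma adjusted p = 0.014). This call was lost in a fit of all 48 samples (limma adjusted p = 0.134). Of 6 olfactory bulb markers, 5 were lower at 12 months (median -0.16, none changed). With Neurog2 and Eomes, 2 of 10 factors changed over this interval, compared with 21.4% of all genes. None of the 10 changed between 6 and 12 months in WT mice by limma, where 0.00579% of all genes changed. Eomes alone had an unadjusted p below 0.05 there, with a difference of -1.40, compared with 6.75% of all genes.

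In HET mice the pattern after 1 month included rises as well as falls. Between 1 and 6 months Sox2 rose by 0.33 (SE 0.08, limma adjusted p = 0.0088), Pax6 rose by 0.31 (SE 0.10, limma adjusted p = 0.033) and Neurog2 fell by 0.61 (SE 0.25, limma adjusted p = 0.098). The share of all genes that changed was 26.8%. Over this interval in HET mice all 8 genes of RNA quality and stress were higher at 6 months (median 0.56, 4 changed), all 10 choroid plexus genes were lower (median -0.49, 1 changed), and 5 of 6 olfactory bulb markers were higher (median 0.30), while the remaining 1 fell. Their part in the changes of Sox2, Pax6 and Neurog2 was not tested. The Neurog2 call was lost on leaving out 10 of the 12 mice in turn (limma adjusted p up to 0.191) and without the filter on low values. Between 1 and 12 months Pax6 rose by 0.46 (SE 0.12), Sox2 rose by 0.35 (SE 0.09) and Neurog2 fell by 0.73 (SE 0.26), while 39% of all genes changed. Pax6 ranged from 8.05 to 8.43 at 1 month (median 8.18) and from 8.34 to 9.13 at 12 months (median 8.69), so that the ages overlapped slightly. Of the 6 olfactory bulb markers, 5 were higher at 12 months (median 0.65, none changed), and their part in the Pax6 rise was not tested. Between 6 and 12 months Lhx2 fell by 0.17 (SE 0.04, limma adjusted p = 0.075) with no overlap, where 3.43% of all genes changed and 1.79% did not overlap. This call was lost on leaving out 7 of the 12 mice in turn (limma adjusted p up to 0.180). Lhx2 values lay between 10.98 and 11.10 at 6 months and between 10.69 and 10.97 at 12 months.

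Whether these adult courses differed between genotypes was tested directly. None of the 10 factors passed the limma test of a different change from 1 to 6, 6 to 12 or 1 to 12 months, where 0%, 0.0578% and 0.00578% of all genes did. These tests were added after the values had been seen. For Pax6 the difference between the genotypes in the change from 1 to 12 months was 0.45 (SE 0.17, limma adjusted p = 0.286), and for Sox2 in the change from 1 to 6 months it was 0.36 (SE 0.14, limma adjusted p = 1). For Eomes in the change from 6 to 12 months it was 1.98 (limma adjusted p = 0.553). The rises of Pax6 and Sox2 in HET mice were therefore not shown to differ from the course in WT mice. The genotype difference at 1, 6 or 12 months was also tested against that at E14.5 in the same limma fit, and none of the 10 passed, where 0%, 0% and 0.0635% of all genes did. Sox2 and Emx1 at 1 month had an unadjusted p below 0.05, and no factor did at 6 or 12 months, compared with 4.6%, 5.08% and 11.5% of all genes.

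At E14.5 none of the 10 progenitor factors passed the test between HET and WT cortex. By limma, 0.00593% of the 16877 genes tested changed, and that 1 gene was Chd8. This count holds for limma on VST values without a batch term. The paper used DESeq2 with a batch correction at the same threshold and reports further genes at this age, among them Usp11 and Wars2. No factor had an unadjusted p below 0.05, compared with 4.56% of all genes, and the genotypes overlapped for all 10, where 0.261% of genes did not. The median difference of the 10 was 0.09, with 8 of 10 above 0, against 0.00 for all genes. Eomes, the intermediate progenitor factor, had the largest difference. It ranged from 11.14 to 12.82 in WT embryos (median 11.69) and from 11.57 to 12.67 in HET embryos (median 12.13), a difference of 0.29 (SE 0.27, limma adjusted p = 0.98; exact two-sided permutation p = 0.370). Emx1 ranged from 8.95 to 9.99 (median 9.25) and from 9.40 to 9.81 (median 9.69), with a difference of 0.27 (SE 0.15, limma adjusted p = 0.98; exact permutation p = 0.141). All 6 HET embryos were above the WT median of Emx1 and none was above all WT embryos. Differences of the other 8 factors lay between -0.12 (Neurog1) and 0.16 (Lhx2), with SEs from 0.10 to 0.15.

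**Figure D3:**
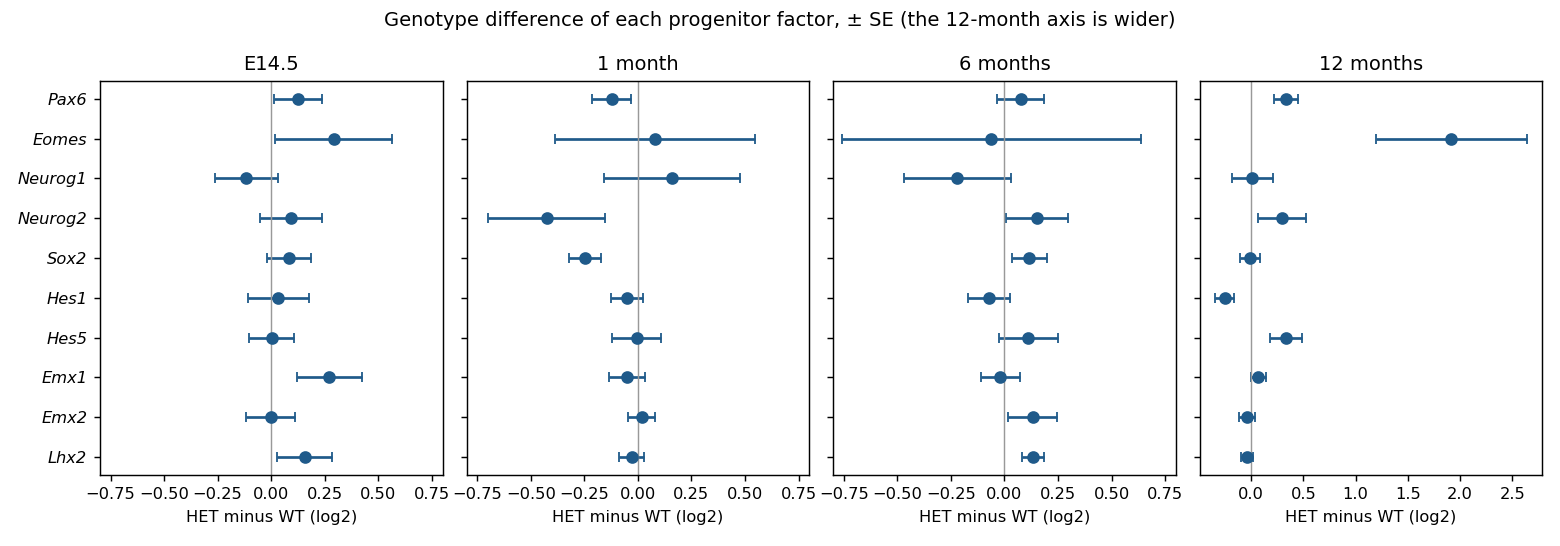
HET minus WT difference (x axis, log2, ± SE) of each factor at the 4 ages, with a wider axis at 12 months. Most intervals reach 0 at E14.5, and Eomes at 12 months lies furthest from it, at 1.92 ± 0.72.

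The embryos differed from each other in a common direction. WT replicate 6 had the highest WT value of all 10 factors, and HET replicate 6 had the highest HET value of 8 of the 10. Lowest values all fell in replicates 1 to 3, which held those of 2, 5 and 3 factors in WT embryos. In HET embryos, replicates 1 to 3 held those of 2, 3 and 5 factors. For Eomes, HET embryos ranged from 11.57 to 11.87 in replicates 1 to 3 and from 12.40 to 12.67 in replicates 4 to 6. Deviations from the genotype means were positively correlated for all 45 pairs of factors over the 12 embryos, with Pearson's r from 0.21 to 0.95 (median 0.70). Without WT replicate 6 the median r over 11 embryos was 0.51, with a range from -0.21 to 0.91. These values are descriptive, since all genes of an embryo share its library, dissection and normalization. The part of the replicate set in them was not tested. Leaving out WT replicate 6 moved the difference between genotypes to 0.40 for Emx1 (limma adjusted p = 0.217), 0.27 for Lhx2, 0.21 for Pax6 and 0.49 for Eomes, and no factor changed.

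The genes whose deviations at E14.5 were most like those of each factor were described by Pearson's r over 12 embryos, among 16867 genes. Both replicate sets were pooled for these values. For Pax6 these were Dmrta2 (0.99) and Mybbp1a (0.98), for Emx1 Pantr1 and Zkscan3 (both 0.97), and for Lhx2 Sypl2 (0.97) and Aifm1 (0.96). Dmrta2 encodes a transcription factor of the cortical primordium. Eomes was most like Eaf1 (0.97) and Tsku (0.96), Neurog1 like Spidr and Copg2 (both 0.95), and Neurog2 like Api5 (0.97) and Ruvbl2 (0.96). Sox2 was most like Polr2b (0.99) and Dpf2 (0.98), and Emx2 like Tmem164 and Tirap (both 0.98). Hes1 was most like Tmem123 (0.98) and Kif18a (0.97), and Hes5 like Phgdh and Cmtm7 (both 0.91), the lowest values in the set. Dpf2 encodes a subunit of the BAF chromatin remodeling complex, and Phgdh the first enzyme of serine synthesis, which radial glia and astrocytes express.

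Markers of caudal brain regions moved with Emx1 between embryos, and with Neurog2 by Spearman's rho only. At E14.5 the 31 midbrain, hindbrain and spinal cord markers tested were all lower in HET than in WT embryos (median -1.07) and none of them changed, and 0.00593% of all genes did. Of the 35 markers, 2 were near the floor in WT and 12 in HET embryos. Tbr1 was 0.36 higher in HET embryos (SE 0.14, limma adjusted p = 0.98). Emx1 was negatively correlated with the mean of these markers within genotypes (Pearson's r = -0.83, permutation p = 0.0074, adjusted p = 0.037; Spearman's rho = -0.87, permutation p = 0.0013, adjusted p = 0.0067; n = 12). Without the 2 embryos farthest from the median marker mean r was -0.86, and in replicates 1 to 3 and 4 to 6 it was -0.92 and -0.86. For Neurog2 rho was -0.77 (permutation p = 0.0093, adjusted p = 0.037) and r was -0.66 (permutation p = 0.05, adjusted p = 0.20). The remaining 8 factors had r from -0.52 for Pax6 to 0.02 for Neurog1, with adjusted permutation p of 0.23 or more. Within replicates 1 to 3 and 4 to 6, r was -0.87 and -0.98 for Eomes, and -0.89 and -0.78 for Pax6. For Lhx2 it was -0.61 and -0.76, for Hes1 -0.44 and -0.82, and for Hes5 -0.10 and -0.08. It changed sign between the sets for Emx2 (0.75 and -0.83), Sox2 (0.83 and -0.47) and Neurog1 (0.70 and -0.27). These within-set values were not tested, and the permutations were not confined to a set. The p values were adjusted over 20 relations, which are those of the 10 factors with this marker mean and with the olfactory bulb marker mean. In a fit that included the caudal marker mean, HET minus WT differences were 0.00 for Emx1, 0.01 for Eomes, 0.00 for Pax6 and -0.11 for Neurog2. The marker mean itself was lower in HET than in WT embryos (group means 4.56 and 5.59), so genotype and marker level cannot be told apart here. The part of caudal tissue in the genotype differences was not tested.

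**Figure D4:**
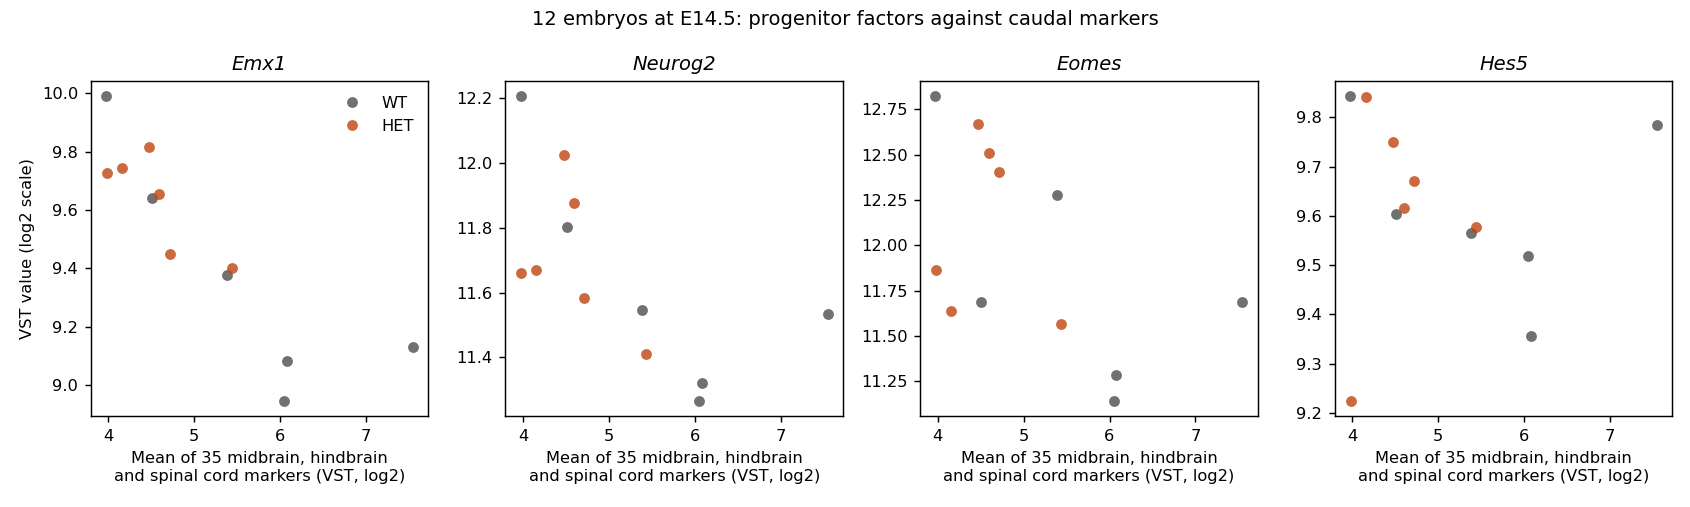
VST values (y axis, log2) of Emx1, Neurog2, Eomes and Hes5 against the mean of 35 midbrain, hindbrain and spinal cord markers (x axis, VST, log2) in 12 embryos at E14.5. Emx1 declines along the marker mean in both genotypes, with r = -0.83 within genotypes, and WT embryos reach marker means of 7.55.

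Other gene groups of the embryonic cortex were compared in the same way. None of 26 Notch pathway, 17 radial glia, 12 intermediate progenitor, 18 cortical patterning and 19 proliferation genes changed between genotypes at E14.5, and the lowest limma adjusted p in each list was 0.98. The lists had medians of -0.01, 0.05, 0.03, 0.13 and 0.18, respectively, with 11, 13, 8, 14 and 18 genes above 0. Newborn excitatory neuron genes had a median of 0.33, with 9 of 12 genes above 0 and none changed.

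At 1 month and 6 months none of the 10 factors changed with genotype, where 0.139% and 0.0927% of all genes did by limma. Each age had 1 factor with an unadjusted p below 0.05, compared with 8.8% and 7.59% of all genes. At 1 month this was Sox2, which ranged from 10.08 to 10.55 in WT mice (median 10.19) and from 9.76 to 10.16 in HET mice (median 9.96). Of the 6 HET mice, 4 were below all WT mice and none was above the WT median. The difference was -0.25 (SE 0.08, limma adjusted p = 0.337), and an exact two-sided permutation test of the same values gave p = 0.015 before adjustment. Choroid plexus genes were all higher in HET mice at this age (10 of 10, median 0.36, none changed), and their part in the Sox2 difference was not tested. Neurog2 had the largest difference at this age, -0.43 (SE 0.27, limma adjusted p = 0.686), with 0 of 6 HET mice above the WT median. At 6 months the factor was Lhx2, from 10.71 to 11.02 in WT mice and from 10.98 to 11.10 in HET mice, with a difference of 0.13 (SE 0.05, limma adjusted p = 0.580; exact permutation p = 0.037). Of 17 radial glia and 12 astrocyte genes, 15 and 12 were higher in HET mice at 6 months (medians 0.14 and 0.11), and none changed. The choroid plexus genes were then all lower in HET mice (10 of 10, median -0.52, none changed), and their part in the Lhx2 difference was not tested. The genotypes overlapped for all 10 factors at both ages, where 0.825% and 0.527% of all genes did not.

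At 12 months none of the 10 changed by limma, where 0.0463% of all genes did, and 4 of 10 had an unadjusted p below 0.05, compared with 11.6% of all genes. These were Eomes, Pax6, Hes1 and Hes5. Eomes ranged from 3.002 to 5.07 in WT mice (median 3.81) and from 2.71 to 8.92 in HET mice (median 5.85). Of the 6 HET mice, 4 were above all WT mice and 1 was below them. The difference of 1.92 (SE 0.72, limma adjusted p = 0.336) was among the largest of all 17288 genes, of which 0.0116% had a larger one. The exact two-sided permutation p was 0.058 before adjustment, and the difference was 1.28 without the HET mouse of highest Eomes.

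Pax6 ranged from 8.13 to 8.53 in WT mice (median 8.35) and from 8.34 to 9.13 in HET mice (median 8.69), with 4 of 6 HET mice above all WT mice. Its difference was 0.33 (SE 0.12, limma adjusted p = 0.314; exact permutation p = 0.030). The differences of the Notch targets Hes1 and Hes5 had opposite signs, and neither gene changed. Hes1 was 0.26 lower in HET mice (SE 0.09, limma adjusted p = 0.303; exact permutation p = 0.017), with values from 7.79 to 8.28 in WT mice and from 7.59 to 7.93 in HET mice, and no HET mouse was above the WT median. Hes5 was 0.34 higher (SE 0.15, limma adjusted p = 0.416; exact permutation p = 0.093), and all 6 HET mice were above its WT median. The Notch ligand Jag1 had a difference of 0.32 (SE 0.10, limma adjusted p = 0.285), the lowest p of 26 Notch pathway genes, none of which changed. Of 10 blood and endothelium genes, 9 were lower and 1 was higher in HET mice at 12 months (median -0.08, none changed). Their part in the Hes1 difference was not tested. The genotypes overlapped for all 10 factors, where 0.868% of genes did not.

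Adult Eomes was the most variable of the 10 factors, with SDs between 6 mice from 0.72 to 2.14 over the 6 postnatal groups. In the 36 postnatal mice, the genes whose deviations from the group means were most like those of Eomes were Doc2g and Calb2 (both r = 0.93, descriptive, among 17247 genes), a comparison added after the values had been seen. Doc2g is a marker of olfactory bulb projection neurons, and Calb2 encodes calretinin, abundant in olfactory bulb granule and periglomerular interneurons. The mean of 6 olfactory bulb markers (Tbx21, Cdhr1, Doc2g, Th, Slc17a8 and Trh) was correlated with Eomes at r = 0.91 (permutation p = 1e-05, the smallest these permutations can give, adjusted p = 0.0002; rho = 0.77, permutation p = 1e-05, adjusted p = 0.0002; n = 36). Without the 2 mice farthest from the median r was 0.87, and in replicates 1 to 3 and 4 to 6 it was 0.96 and 0.71. Doc2g, the gene most like Eomes, is also 1 of the 6 markers, so the 2 comparisons are not separate evidence. The marker list was chosen with earlier results of these data known.

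The 3 mice with the highest marker means were also those with the highest Eomes. In the HET mouse at 12 months with Eomes at 8.92 the marker mean was 8.69, in the HET mouse at 6 months with Eomes at 7.99 it was 8.24, and in the WT mouse at 6 months with Eomes at 7.85 it was 8.04. Both genotypes were therefore represented at the top of the range. Of the 6 markers, Slc17a8 was not high in these 3 mice, at 6.66, 6.77 and 6.79 respectively. Its values in postnatal mice ranged from 6.59 to 7.61. The lowest Eomes value, 2.71 in a HET mouse at 12 months, went with the lowest marker mean, 5.56.

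Pax6 followed the same markers, with r = 0.75 (permutation p = 4e-05, adjusted p = 0.0004) and rho = 0.68 (permutation p = 7e-05, adjusted p = 0.0007). Without the 2 farthest mice r was 0.63, and in replicates 1 to 3 and 4 to 6 it was 0.82 and 0.62. Emx1 went in the opposite direction, with r = -0.60 (permutation p = 0.00013, adjusted p = 0.00087) and rho = -0.58 (permutation p = 0.00048, adjusted p = 0.0032). Its r was -0.53 without the 2 farthest mice and -0.68 and -0.63 in the replicate sets. The remaining 7 factors had r between -0.16 and 0.25 and adjusted permutation p of 0.25 or more.

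**Figure D5:**
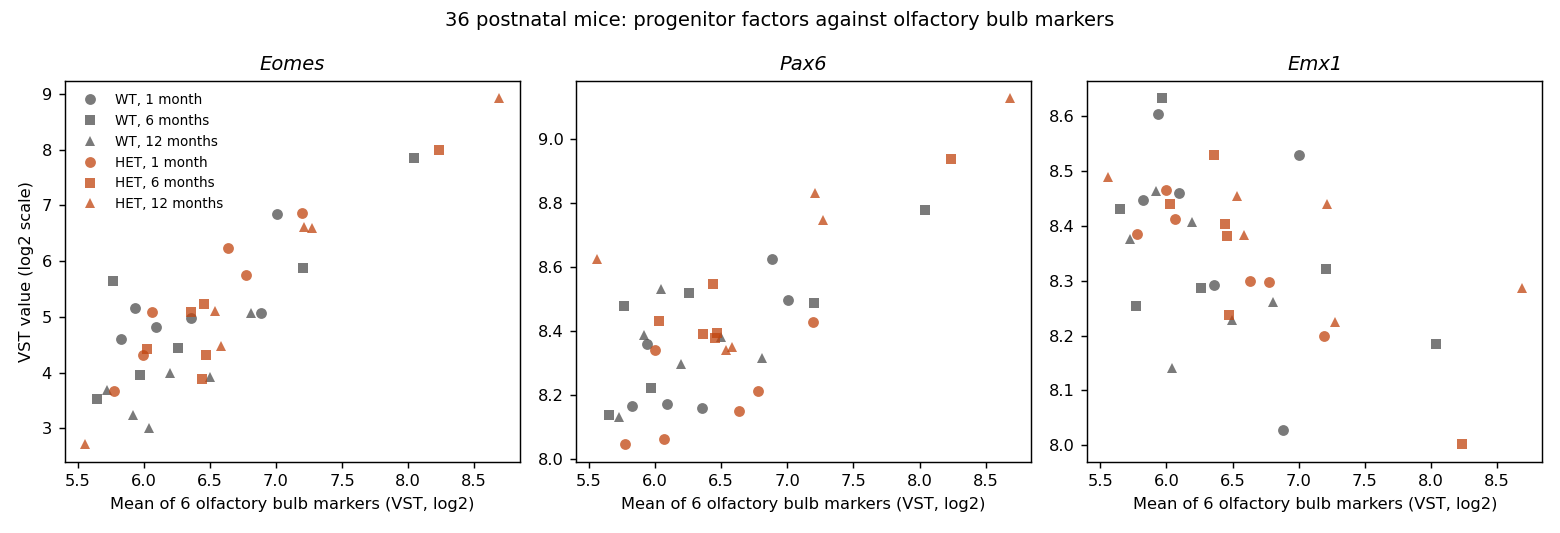
VST values (y axis, log2) of Eomes, Pax6 and Emx1 against the mean of 6 olfactory bulb markers (x axis, VST, log2) in 36 postnatal mice, with colour for genotype and symbol for age. Eomes and Pax6 rise along the marker mean in WT and HET mice alike, up to Eomes at 8.92, and Emx1 declines.

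At 12 months, 5 of the 6 olfactory bulb markers were higher in HET mice (median difference 0.96, none changed). The largest difference was that of Doc2g, 1.26 (SE 0.58, limma adjusted p = 0.419), and the lowest p were those of Tbx21, with 1.10 (SE 0.44, limma adjusted p = 0.358), and Cdhr1, with 1.05 (SE 0.44). With the marker mean as a covariate, an alternative added after the values had been seen, the difference between genotypes at 12 months was 0.40 for Eomes (limma adjusted p = 0.53), 0.18 for Pax6 (limma adjusted p = 0.515), 0.24 for Hes5 and -0.23 for Hes1. Eomes and Tbx21 are both expressed by olfactory bulb projection neurons, and Eomes was not among the 6 markers. At this age the marker mean was itself higher in HET than in WT mice, so this fit cannot tell genotype and marker level apart. The part of olfactory bulb tissue in the genotype differences at 12 months was not tested.

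The other factors had different neighbours in the adult cortex. Sox2 was most like Sox9 (r = 0.87) and Cx3cr1 (0.76) and Hes5 like Zfp467 (0.80) and Sox13 (0.72), in the same descriptive comparison over 36 mice. Sox9, like Sox2, is expressed by astrocytes, and Cx3cr1 by microglia. Pax6 was most like Gprc5b and Gcnt1 (both 0.81), and for Emx1, Hes1, Emx2, Lhx2, Neurog1 and Neurog2 the highest r was between 0.61 (Smco4, with Neurog2) and 0.78 (Adamts8, with Emx1). Among the 45 pairs of factors the median r was 0.065 after birth, from -0.57 for Pax6 and Emx1 to 0.68 for Pax6 and Eomes, and Sox2 and Hes5 had r = 0.50.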

How the data were processed

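PolyA RNA from dissected cortex was sequenced by the authors as paired-end reads. They filtered and trimmed the reads, aligned them to mm9 with STAR 2.5.2b, quantified transcripts with Salmon 0.11.3 and processed the counts with DESeq2 (the submitters' notes name DESeq 1.22.2), with correction for a batch that the sources used here do not name. The library kit is given differently by the labels (TruSeq RNA v2) and the methods (a stranded KAPA kit). The values deposited by the authors are VST values on a log2 scale for 24444 genes in 48 samples. Their most frequent value, 2.1433 (15.719% of values), was taken as the floor. Over all 48 samples, the mean of replicates 1 to 3 equalled that of replicates 4 to 6 for each gene (largest gap 3.38e-14). A difference between the sets, pooled over ages and genotypes, had therefore been removed before deposit. Within 1 age the sets could still differ. At E14.5, Eomes in HET embryos was 11.57 to 11.87 in replicates 1 to 3 and 12.40 to 12.67 in replicates 4 to 6. The table keeps no counts, so the depth behind single values is unknown, no counting intervals or count tests were possible, and the precision is the SD between 6 mice per group.

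Groups were taken from the sample titles. Pairs of groups were compared by limma (version 3.58.1, R 4.3.3) with an intensity-dependent variance prior, in genes whose mean VST value over the samples compared was at least 0.5 above the floor. The p values were adjusted over all genes tested by the Benjamini-Hochberg method and judged at 0.1, and they measure the spread between mice. Differences of genotype effects between ages came from a fit of all 48 samples. Correlations used deviations from group means, with 100000 permutations within groups (numpy 2.4.6, Python 3.11.15). The limma procedure was tested on simulated data with independent noise for each gene and mouse. That simulation held no difference between replicate sets and no correlation between genes, unlike the deposited values.

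All 10 factors and Chd8 were named in each comparison that turns on them. From each gene list up to 4 changed genes with the largest differences were to be named, or else the 2 with the lowest p, and for each factor the 2 most similar genes at E14.5. Rbpj, Notch1, Notch2, Notch3, Numb, Numbl, Hopx, Slc1a3, Fgfr3 and Tbr1 were named outside this rule, after their values were seen. The factors and gene lists were chosen with earlier results of these data known. Alternatives were another filter or none, an adjusted p below 0.05, quantile or median scaling, no trend, a fit of all samples, read depth, replicate set or marker means as covariates, a replicate block, and each mouse left out in turn. Replicate numbers were not taken as pairs, since no source ties a number to a litter or day and same-numbered mice did not all deviate together. At E14.5, however, same-numbered WT and HET embryos had a mean r of 0.232 (lowest 0.012), and the same number was the best match for 4 of 6.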

Additional observations from a re-analysis of the deposited data

Results flagged for a closer look

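Among 80 groups of 6 mice (10 factors in 8 groups), 7 held a value far from the other 5 by Dixon's criterion, which flags about 1 in 20 groups by chance. In HET mice at 6 months, replicate 2 stood above the rest for both Eomes (7.99) and Pax6 (8.94), and its olfactory bulb marker mean was 8.24, where the highest in the remaining 5 mice of the group was 6.47. In WT mice at 1 month, Eomes was highest in replicate 1, at 6.84, and Sox2 in replicate 5, at 10.55. Lhx2 in WT embryos was highest in replicate 6, at 13.04, the embryo with the highest WT value of all 10 factors. Low values stood apart for Neurog1 in HET replicate 5 at 6 months, at 2.03, which is below the floor, and for Neurog2 in HET replicate 5 at 1 month, at 3.74. No factor had a genotype effect that differed between ages by the limma fit of all 48 samples.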

How the results depend on the processing

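The fall of all 10 factors from E14.5 to 1 month was called under each alternative and with any 1 mouse left out, in both genotypes. Under quantile normalization the median of all genes moved to -0.106 in WT and -0.108 in HET mice for this interval. The 0 calls between genotypes held under all alternatives at E14.5, 1 month and 6 months. At 12 months 1 factor, Hes1, was called in the fit of all 48 samples with the replicate block (difference -0.26, limma adjusted p = 0.072). From 1 to 6 months in WT mice the replicate block gave 2 calls in place of 1, adding Lhx2, and leaving out 1 mouse gave 1 to 2. From 1 to 12 months in WT mice the fit of all 48 samples gave 1 in place of 2. From 6 to 12 months in HET mice the 1 call (Lhx2) became 0 at an adjusted p of 0.05, without the filter, with quantile normalization, without the trend and in the fit of all 48 samples, and 0 to 1 with a mouse left out. The cause of these moves was not tested. Deviations of same-numbered WT and HET mice over all genes had r from 0.012 to 0.578 at E14.5 (mean 0.232, all 6 pairs above 0), where the same number was the best match for 4 of 6, and from -0.144 to 0.172 at later ages, where it was the best match for 1, 1 and 0 of 6. The replicate block changed no other number of factors called by over 1.5 times. The calls among all genes between genotypes varied more: 0 to 303 at E14.5 (1 as reported), 13 to 45 at 1 month (24), 2 to 38 at 6 months (16) and 2 to 1019 at 12 months (8), with the highest counts in the fit of all 48 samples with the block; leaving out 1 mouse gave 0 to 2, 3 to 32, 5 to 21 and 2 to 251 at the 4 ages.

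Differences near 0, none of them called, changed sign. With median scaling the Hes5 difference between genotypes was -0.0037 at E14.5 and 0.0060 at 1 month, and with quantile normalization it was 0.0032 at 1 month; the change of the genotype difference between these ages was 0.0097 and 0.0005 under the same scalings. With read depth as a covariate Hes1 was -0.0033 at E14.5, Hes5 0.0030 at 1 month and Eomes 0.13 at 6 months. With caudal markers as a covariate Neurog2, Hes1 and Hes5 were -0.11, -0.11 and -0.0082 at E14.5. Neurog1 at 12 months was -0.020 with quantile normalization, and Emx2 0.038 with olfactory bulb markers as a covariate. The cause was not tested. Leaving out 1 mouse at a time gave the following ranges for differences that changed sign. Between genotypes at E14.5 they were Hes5 -0.050 to 0.079, Hes1 -0.054 to 0.13, Emx2 -0.063 to 0.071. Between genotypes at 1 month they were Eomes -0.23 to 0.41, Neurog1 -0.031 to 0.43, Emx2 -0.022 to 0.058, Lhx2 -0.061 to 0.0008, Hes5 -0.074 to 0.087. Between genotypes at 6 months they were Eomes -0.63 to 0.47, Emx1 -0.059 to 0.047, Pax6 -0.0079 to 0.14, Neurog1 -0.33 to 0.032. Between genotypes at 12 months they were Sox2 -0.068 to 0.062, Neurog1 -0.095 to 0.11, Emx2 -0.082 to 0.0002. From 1 month to 6 months in WT mice they were Eomes -0.55 to 0.31, Sox2 -0.074 to 0.034, Hes1 -0.048 to 0.065, Emx1 -0.12 to 0.0005, Emx2 -0.010 to 0.12. From 6 months to 12 months in WT mice they were Lhx2 -0.025 to 0.036, Neurog1 -0.071 to 0.13, Emx2 -0.12 to 0.011, Hes5 -0.012 to 0.19, Emx1 -0.072 to 0.017. From 1 month to 12 months in WT mice they were Pax6 -0.027 to 0.070, Emx2 -0.037 to 0.043. From 1 month to 6 months in HET mice they were Hes1 -0.056 to 0.024, Emx1 -0.051 to 0.055, Neurog1 -0.35 to 0.17, Eomes -0.74 to 0.14. From 6 months to 12 months in HET mice they were Sox2 -0.023 to 0.10, Emx1 -0.019 to 0.087, Eomes -0.054 to 1.19. From 1 month to 12 months in HET mice they were Eomes -0.22 to 1.02, Neurog1 -0.10 to 0.30. Where the VST table keeps no counts, the depth of low genes such as adult Neurog1 limits what can be detected, and it is unknown.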
